A study of Homo sapiens with 12 samples.

Results

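The transcripts described here are those of 4 interferon genes, IFNB1, IFNL1, IFNL2 and IFNL3, and of the 4 receptor chains that bind their products, IFNAR1, IFNAR2, IFNLR1 and IL10RB. The 8 genes were chosen by symbol from the 25268 gene symbols measured, with the differences between RBMX-overexpressing and control cells in total and polysomal RNA already known. For this contrast their values are therefore a description without a test. The choice did not use the contrast of polysomal with total RNA within one vector, which was tested. The difference of this contrast between the vectors is built from both contrasts that were known and is again given without a test. All 8 genes were among the 14676 genes that averaged 0.5 FPKM or more across all 12 libraries. IFNL2 and IFNL3 reached this minimum only through the RBMX libraries, their control means being 0.181 to 0.417 FPKM.

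HEK293, an established human embryonic kidney line, was transiently transfected with 2 µg of pCMV6-HIS-HA-RBMX, which expresses tagged RBMX, an RNA-binding protein. The control cells received the mock empty vector and are labelled wild type; both groups went through lipofection and a short cycloheximide treatment before lysis, and no untransfected cells were analysed here. For each vector 3 cultures were grown, 6 in all, and each lysate was cleared of nuclei and separated on a sucrose gradient. Polysomal RNA came from the gradient fractions that hold mRNAs loaded with ribosomes, and total RNA from a pool of 20% of every fraction of the gradient, which gave 12 libraries in 4 groups of 3, each made from 500 ng of RNA.

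Interferons are secreted proteins that cells release after sensing foreign nucleic acid. IFNB1 encodes interferon beta, a type I interferon that binds a receptor made of IFNAR1 and IFNAR2, and the IFNL genes encode the type III interferons (lambda), which bind IFNLR1 paired with IL10RB. Both receptors signal through the kinases JAK1 and TYK2 to ISGF3, a transcription factor complex that switches on a large set of antiviral genes. Receptor chains are commonly present in a resting cell, whereas the ligands are made on demand.

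Values are FPKM, which count fragments per length of transcript relative to all fragments of a library, so that levels of different genes can be compared. Depth is unknown, and the sum of FPKM over all genes ran from 817528 to 1903317. The RBMX transcript had an FPKM of 147, 145 and 108 in control total replicates 1 to 3 and of 1731, 2073 and 1460 in the RBMX total replicates, and in polysomal RNA of 146, 148 and 87.4 against 1167, 1328 and 1072. All RBMX libraries lay above all control libraries, as their labels say, and RBMX culture 3 had the lowest RBMX level of its group in both fractions. The 9 markers of HEK293 cells listed for the check, such as VIM and KRT8, were all present, with a summed FPKM of 912 to 943 in RBMX total RNA and of 492 to 966 in control total RNA, the lowest of which belonged to control culture 3. KRT8 and KRT18, 2 of the 9, were higher without overlap in RBMX libraries in each fraction. Of all genes tested, 11.9% (total) and 10.0% (polysomal) were so. Of 9 leukocyte markers, 1 (IL3RA, of plasmacytoid dendritic cells) was at 0 in every library, PTPRC reached at most 0.0209, and CD14 alone had a mean over 0.5. Without overlap 2 of the 9 leukocyte markers were higher in RBMX-overexpressing cells in each fraction. Of these markers only CD14 is among the genes behind the shares of 11.9% and 10.0%. ITGAM, an integrin of myeloid cells, was 0.0920, 0.0806 and 0.153 in control and 0.549, 0.433 and 0.273 FPKM in RBMX total RNA, and was likewise higher in polysomal RNA. The others were LILRA4 in total RNA, at most 0.0448, and CD14 in polysomal RNA, at 1.24 to 1.35 in control and 1.44 to 1.65 in RBMX libraries. The summed FPKM of the 9 markers was 1.48 to 2.17 in control total RNA, 1.80 to 2.77 in RBMX total RNA, 1.41 to 1.66 in control polysomal RNA and 1.81 to 2.41 in RBMX polysomal RNA, and its part in the results was not tested.

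The 4 interferon genes are compact and lie on chromosomes 9 and 19. In the GENCODE annotation of GRCh38, IFNB1 is a gene of 1 exon on the minus strand of chromosome 9 from 21077105 to 21077963. IFNL1 has 5 exons on the plus strand of chromosome 19 from 39296325 to 39298673, IFNL2 has 6 exons on the plus strand from 39268514 to 39270092, and IFNL3 has 6 exons on the minus strand from 39243553 to 39245129. The longest coding transcripts of IFNL2 and IFNL3 were 98.0% identical over 734 aligned columns, against 78.7% for IFNL1 with IFNL2. How fragments were divided between IFNL2 and IFNL3 is therefore uncertain, and their sum is given as well.

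Promoters from RefSeq (GRCh38.p14), taken as 250 bases before to 50 after the first listed transcription start of a gene, were found for 7 of the 8 genes, all but IFNAR2. They were searched on both strands for AANNGAAA, a core motif of interferon regulatory factors, and for its form AAGTGAAA, which was picked after the interferon promoters had been read and is contained in the first. AANNGAAA was in 23.2% of 27305 promoters and AAGTGAAA in 1.69%. AAGTGAAA occurred once in each of the 4 interferon promoters, at bases -76, -74, -70 and -70 from the start for IFNB1, IFNL1, IFNL2 and IFNL3, and in none of the IFNAR1, IFNLR1 and IL10RB promoters. The kappa B motif, bound by NF-kappa B and found in 10.8% of promoters, was in those of IFNB1, IFNL2 and IFNL3, and overlaps neither of the others in these windows. With a share of 1.69%, no match in the IFNAR1, IFNLR1 and IL10RB promoters is what most promoters would show, and IFNAR2 was not searched. No contrast of interferon and receptor genes is read from this. The 30 bases around AAGTGAAA are shown because the interferon genes share this element. Each is read 5′ to 3′ on the strand of the gene, chr9:21077993-21078022 on minus for IFNB1, chr19:39296322-39296351 on plus for IFNL1, chr19:39268315-39268344 on plus for IFNL2 and chr19:39245302-39245331 on minus for IFNL3. Capitals mark AAGTGAAA, which in the IFNL promoters is on the opposite strand and so appears as its reverse complement, and, in IFNB1, also the kappa B motif that follows it.
IFNB1: ggagAAGTGAAAgtGGGAAATTCCtctgaa
IFNL1: tccaattacctTTTCACTTtacacacatca
IFNL2: tgaggctgtgtTTTCACTTttcctacatca
IFNL3: tgaggctgtgtTTTCACTTttcctacatca
The IFNL2 and IFNL3 windows are identical, and over the whole 300 bases their promoters differ at 1 base. Positions are counted from the RefSeq start, which differs from the GENCODE start. For IFNL1 it lies further into the gene, so that the window shown is mostly inside the gene as GENCODE draws it. A match of letters is a description of the sequence and no binding was measured.

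IFNB1 transcripts were near 1 FPKM in control cells and an order of magnitude higher in cultures 1 and 2 of the RBMX-overexpressing cells. In total RNA IFNB1 had an FPKM of 1.22, 0.867 and 0.813 in control replicates 1 to 3 and of 19.2, 22.1 and 3.19 in RBMX replicates 1 to 3. The 3 RBMX libraries all lay above the control libraries, but replicate 3 was much closer to them than the others were. The difference on the log2(FPKM + 1) scale was 2.67 (standard error 0.68, n = 3 per group), and the means, 14.8 ± 10.2 and 0.968 ± 0.224 (SD), stood in a ratio of 15.3, which was 21.3 without RBMX replicate 3 and 3.30 with that replicate alone. More cells with the transcript and more transcript per cell cannot be told apart in such bulk RNA.

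In polysomal RNA IFNB1 had an FPKM of 0.696, 1.02 and 0.860 in control cells and of 11.3, 8.80 and 2.14 in RBMX-overexpressing cells. Again no replicates overlapped and RBMX replicate 3 was the lowest of its group. The log2 difference was 1.97 (standard error 0.52), and the ratio of the means was 8.65, or 11.7 without RBMX replicate 3.

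IFNL1 had the highest mean of the interferon transcripts measured, in each of the 4 groups. Its FPKM in total RNA was 1.49, 1.06 and 1.13 in control cells and 30.2, 32.5 and 4.33 in RBMX-overexpressing cells. In polysomal RNA it was 1.03, 1.36 and 0.741 in control cells and 25.3, 21.4 and 3.95 in RBMX-overexpressing cells. The lowest RBMX library was 2.91 times the highest control library in each fraction. The log2 differences were 3.00 (standard error 0.74) in total and 2.82 (standard error 0.66) in polysomal RNA, and the ratios of means were 18.3 and 16.2, or 25.6 and 22.4 without RBMX replicate 3.

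IFNL2 and IFNL3 were several times lower than IFNL1 and were likewise lowest in RBMX replicate 3. IFNL2 had a total FPKM of 0.332, 0.174 and 0.0375 in control cells and of 6.40, 6.22 and 1.11 in RBMX-overexpressing cells, and a polysomal FPKM of 0.434, 0.150 and 0.193 against 4.74, 4.54 and 0.990. IFNL3 had a total FPKM of 0.414, 0.353 and 0.306 in control cells and of 8.11, 9.40 and 1.76 in RBMX-overexpressing cells, and a polysomal FPKM of 0.514, 0.407 and 0.329 against 6.73, 6.28 and 1.40. For both genes every RBMX library lay above every control library, with replicate 3 lowest. The log2 differences were 2.04 (standard error 0.51) and 1.67 (standard error 0.43) for IFNL2, and 2.24 (standard error 0.52) and 1.86 (standard error 0.47) for IFNL3, in total and polysomal RNA. With a pseudocount of 0.1 in place of 1 they were 3.86 and 3.10 for IFNL2 and 3.53 and 2.98 for IFNL3. Summed over both genes, the means stood in a ratio of 20.4 in total and 12.2 in polysomal RNA, values that rest on control levels under 1 FPKM.

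The 4 interferon genes had similar steps between the RBMX cultures. In total RNA culture 1 was 6.02 times culture 3 for IFNB1, 6.97 times for IFNL1, 5.74 times for IFNL2 and 4.61 times for IFNL3. Culture 2 was 6.92, 7.51, 5.58 and 5.34 times culture 3 for the same genes. The RBMX transcript itself was 1.19 and 1.42 times as high in cultures 1 and 2 as in culture 3, and whether this difference bears on the interferon genes was not tested.

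**Figure D1:**
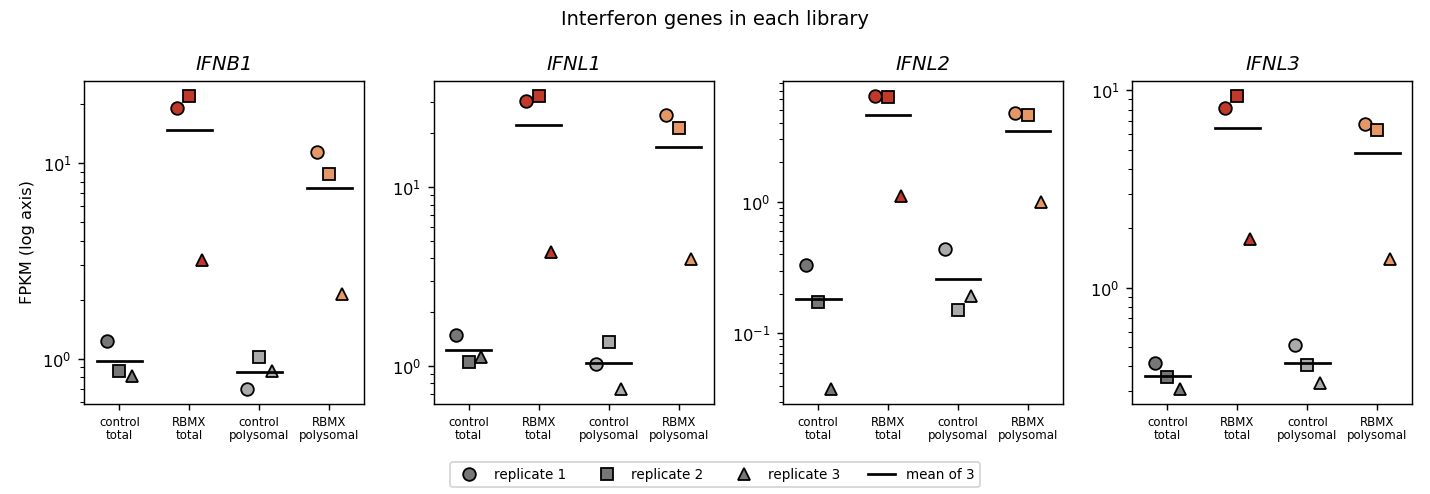
FPKM of IFNB1, IFNL1, IFNL2 and IFNL3 on a log axis in control and RBMX-overexpressing cells, in total and polysomal RNA, with 1 point per library and a line at the mean of 3. RBMX replicate 3 (triangle) lies below replicates 1 and 2 in every panel and still above all control libraries.

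The receptor chains were present in control cells and near the same level in RBMX-overexpressing cells. IFNAR1, the chain to which TYK2 is attached, is on chromosome 21 from 33324477 to 33359862 on the plus strand. It had an FPKM of 21.2, 20.8 and 25.8 in control total RNA and of 18.9, 20.2 and 20.0 in RBMX total RNA. In polysomal RNA it had 22.1, 21.5 and 23.1 against 19.7, 18.4 and 21.6. The RBMX libraries were all below the control libraries in total RNA, while 1 of them overlapped with the controls in polysomal RNA. The log2 difference in total RNA was -0.18 (standard error 0.095, 95% interval -0.42 to 0.056), and that in polysomal RNA -0.15 (standard error 0.081, -0.35 to 0.048).

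IFNAR2, the other chain of the type I receptor, is on chromosome 21 from 33229901 to 33265675. Its FPKM was 21.8, 22.3 and 26.5 in control and 20.4, 23.8 and 23.8 in RBMX total RNA. In polysomal RNA it was 18.8, 18.9 and 21.4 in control and 21.6, 19.4 and 19.9 in RBMX libraries. The groups overlapped in both fractions, with log2 differences of -0.051 (standard error 0.10) and 0.045 (standard error 0.083).

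IFNLR1, the chain particular to type III interferons, was the lowest of the receptor chains and is on chromosome 1 from 24154157 to 24187959 on the minus strand. It had an FPKM of 5.63, 5.56 and 6.11 in control and of 5.50, 5.18 and 6.18 in RBMX total RNA. In polysomal RNA it had 5.14, 5.22 and 6.39 in control and 5.53, 5.93 and 5.53 in RBMX libraries. The groups overlapped in both fractions, and the log2 differences were -0.034 (standard error 0.079) and 0.021 (standard error 0.096).

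IL10RB, which pairs with IFNLR1 and also serves the receptors of interleukins such as IL-10 and IL-22, is on chromosome 21 from 33266358 to 33310187. It had an FPKM of 19.4, 16.6 and 20.4 in control and of 18.5, 17.2 and 19.3 in RBMX total RNA, where the groups overlapped. In polysomal RNA the 3 control libraries, at 21.1, 21.5 and 22.2, were all above the RBMX libraries, at 19.5, 18.1 and 20.8. The log2 differences were -0.028 (standard error 0.094) and -0.14 (standard error 0.074). A read-through gene, AP000295.1, overlaps IFNAR2 and IL10RB on the same strand, and IL10RB-DT overlaps IFNAR2 on the opposite strand, so that reads shared with them cannot be told apart in these values.

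**Figure D2:**
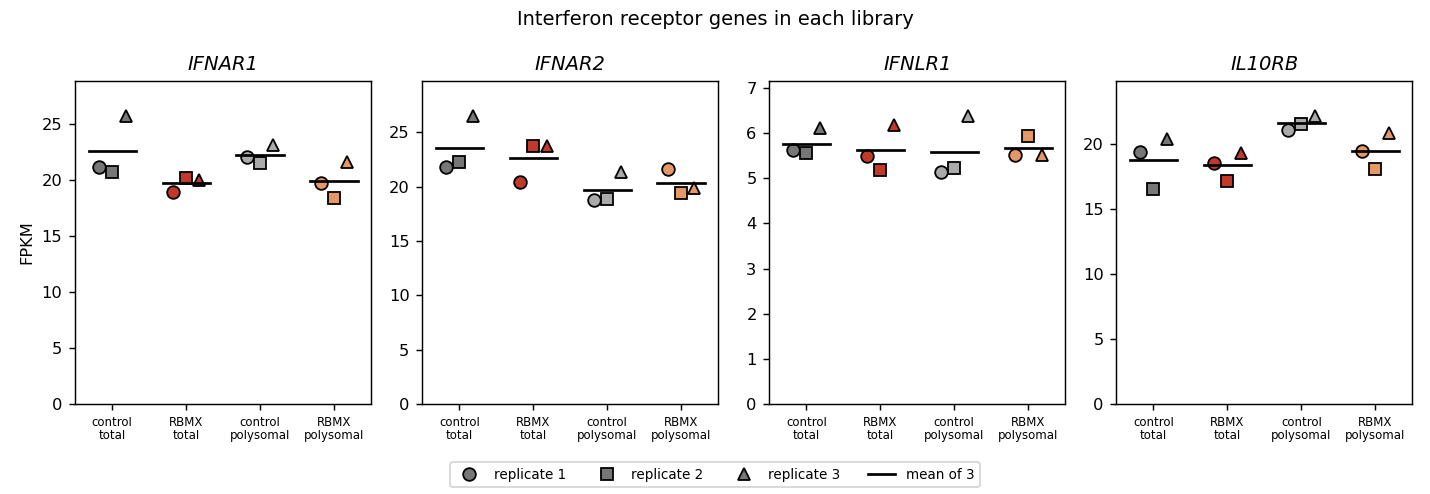
FPKM of the 4 receptor chains on linear axes that start at 0, with 1 point per library and a line at the mean of 3, in the 4 groups of vector and fraction. IFNAR1, IFNAR2 and IL10RB lie between 16.6 and 26.5 in all libraries and IFNLR1 between 5.14 and 6.39.

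Set against all genes tested, the interferon genes and the receptor chains lay at different places of the distribution. From the 5th to the 95th percentile, the log2 differences between RBMX-overexpressing and control cells were -0.30 to 0.40 (total) and -0.35 to 0.40 (polysomal). The 4 interferon genes were above this range and the 4 receptor chains inside it, in both fractions. Replicates were higher without overlap in RBMX-overexpressing cells for 4 of the 8 genes, the interferon genes, in each fraction, where 11.9% (total) and 10.0% (polysomal) of all genes tested were so. They were lower without overlap for 1 of 8 in total RNA (IFNAR1, background 15.4%) and for 1 of 8 in polysomal RNA (IL10RB, background 12.5%). Since this contrast chose the genes, nothing is read from these counts.

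For the same contrast, limma with Benjamini-Hochberg adjustment called 24 genes in total RNA, or 0.164% of those tested, and 7 in polysomal RNA, or 0.0477%, at an adjusted p of up to 0.05. At an unadjusted p under 0.05 there were 2756 and 1715 genes. Of the 8 genes described here 0 were among the calls in either fraction. Without RBMX replicate 3 the counts were 178 genes in total and 126 in polysomal RNA, and the 4 interferon genes were among them in each fraction, which is again no test of genes chosen on this contrast.

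The order of levels among the 8 genes differed between the vectors. In control total RNA the means were 23.5 for IFNAR2, 22.6 for IFNAR1, 18.8 for IL10RB, 5.77 for IFNLR1, 1.22 for IFNL1, 0.968 for IFNB1, 0.358 for IFNL3 and 0.181 for IFNL2. Neighbours in this order did not overlap between IFNAR1 and IL10RB, IL10RB and IFNLR1, IFNLR1 and IFNL1, and IFNB1 and IFNL3, and the libraries of the other neighbours overlapped. In RBMX total RNA the means were 22.6 for IFNAR2, 22.3 for IFNL1, 19.7 for IFNAR1, 18.4 for IL10RB, 14.8 for IFNB1, 6.42 for IFNL3, 5.62 for IFNLR1 and 4.58 for IFNL2. There the mean of IFNL1 lay between those of the receptor chains, with replicates 1 and 2 above and replicate 3 below all libraries of IFNAR1, IFNAR2 and IL10RB. No pair of neighbours was free of overlap. In polysomal RNA of these cells all neighbours overlapped as well, and IFNL1 had a mean of 16.9 and IFNB1 of 7.42 beside 20.3 for IFNAR2.

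The comparison of polysomal with total RNA asks how a transcript is distributed between ribosome-loaded and all fractions of the gradient. In control cells the interferon genes showed no common direction. Within a culture the ratio of polysomal to total FPKM was 0.568, 1.17 and 1.06 for IFNB1, 0.693, 1.28 and 0.657 for IFNL1 and 1.24, 1.15 and 1.08 for IFNL3. For IFNL2 it was 1.31, 0.863 and 5.13, the last from values of 0.193 and 0.0375 FPKM. Summed over IFNL2 and IFNL3, whose split is uncertain, it was 1.27, 1.06 and 1.52. The log2 differences were -0.081 for IFNB1, -0.13 for IFNL1, 0.093 for IFNL2 and 0.060 for IFNL3, with limma adjusted p of 0.884 to 0.945, and all 4 had overlapping groups.

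Among the receptor chains in control cells, IFNAR2 and IL10RB lay on opposite sides of equality. The IFNAR2 ratio was 0.862, 0.847 and 0.805, below 1 in 3 of 3 cultures, and its groups did not overlap (log2 difference -0.24, standard error 0.10, limma adjusted p = 0.632). The IL10RB ratio was 1.09, 1.30 and 1.09, above 1 in 3 of 3 cultures, also without overlap (0.20, standard error 0.089, limma adjusted p = 0.647). IFNAR2 was thus 1 of 8 genes lower without overlap in polysomal RNA, against 7.31% of all genes tested, and IL10RB was 1 of 8 higher, against 7.63%. IFNAR1 and IFNLR1 differed by -0.016 and -0.044, with overlapping groups.

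The limma fit of the control fractions called 12 genes, 0.0818% of those tested, with 1180 at an unadjusted p under 0.05, and 0 of the 8 genes described here. With the replicate block, which pairs both fractions of a culture, the fit called 6 genes. The standard error of IFNAR2 then was 0.042 and its limma adjusted p 0.173, and IL10RB had an adjusted p of 0.247. Control culture 3 decided the number of calls, with 199 genes when both its libraries were left out, at which IFNAR2 had a log2 difference of -0.22 (limma adjusted p = 0.0902).

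In RBMX-overexpressing cells the ratio of polysomal to total FPKM was below 1 in 3 of 3 cultures for each of the 4 interferon genes. For IFNB1 it was 0.590, 0.399 and 0.670 in cultures 1 to 3, the lowest mean of the 8 genes at 0.553 ± 0.139 (SD, n = 3). For IFNL1 it was 0.839, 0.658 and 0.913. For IFNL2 it was 0.741, 0.729 and 0.889, and for IFNL3 it was 0.829, 0.669 and 0.793. Summed over IFNL2 and IFNL3 it was 0.790, 0.693 and 0.830. Culture 2 had the lowest ratio for each of these genes. The share of all genes tested with a ratio below 1 in 3 of 3 cultures was not computed, so nothing is read from this count.

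The receptor chains in the same cultures lay on both sides of 1. IFNAR1 had ratios of 1.04, 0.910 and 1.08, IFNAR2 of 1.06, 0.817 and 0.836 and IFNLR1 of 1.00, 1.15 and 0.895. IL10RB, at 1.05, 1.05 and 1.08, was the only receptor chain above 1 in 3 of 3 cultures. The overexpressed RBMX transcript had ratios of 0.674, 0.640 and 0.734, and its ratios in control cells were 0.991, 1.02 and 0.810.

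**Figure D3:**
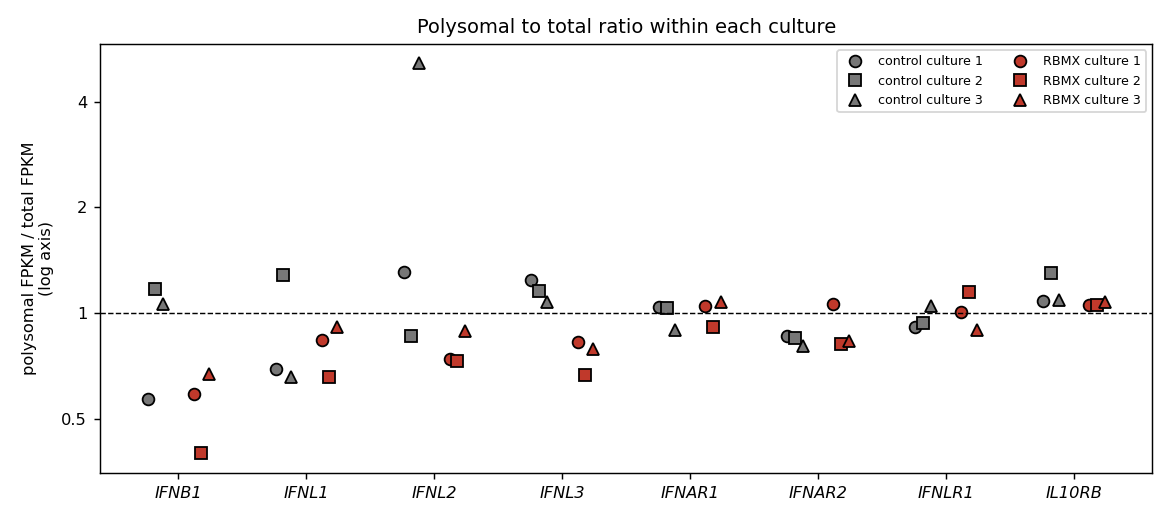
Ratio of polysomal to total FPKM within each culture, on a log axis, for the 8 genes in control and RBMX cultures, with a dashed line at 1. In the RBMX cultures the 4 interferon genes lie below the line in all 3 cultures, down to 0.399 for IFNB1, and the control value of 5.13 for IFNL2 comes from levels under 0.2 FPKM.

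Between libraries treated as unpaired, these fraction differences were within the spread of the RBMX replicates. The log2 difference of IFNB1 was -0.79 (standard error 0.85, 95% interval -2.91 to 1.33, limma adjusted p = 0.612). Those of IFNL1, IFNL2 and IFNL3 were -0.31, -0.28 and -0.32, with limma adjusted p of 0.821 to 0.885. All genes tested ran from -0.49 at the 5th to 0.26 at the 95th percentile. IFNB1 lay below this range and IFNL1, IFNL2 and IFNL3 inside it. The receptor chains differed by -0.15 (IFNAR2) to 0.081 (IL10RB), with limma adjusted p of 0.318 to 0.950. Groups overlapped for all 8 genes, so that 0 were lower without overlap, against 16.2% of all genes tested, and 0 were higher, against 14.6%.

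The fit of the RBMX fractions called 196 genes, 1.34% of those tested, with 3373 at an unadjusted p under 0.05, and 0 of the 8 genes. Leaving out any single RBMX library, or both libraries of an RBMX culture, brought the number to between 10 and 42. With the replicate block, which takes out the low level of culture 3, the fit called 4 genes. The standard errors of the interferon genes were then 0.19 for IFNB1, 0.11 for IFNL1, 0.083 for IFNL2 and 0.085 for IFNL3. Their unadjusted p were 0.0175, 0.0611, 0.0344 and 0.0254, and limma adjusted p were 0.196, 0.240, 0.216 and 0.207, so that none passed the threshold. Without RBMX culture 3 the log2 difference of IFNB1 was -0.97 (limma adjusted p = 0.197).

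The difference of the fraction differences between the vectors was estimated as an interaction over all 12 libraries. For IFNB1 it was -0.71 (standard error 0.91), for IFNL1 -0.18 (standard error 1.06), for IFNL2 -0.37 (standard error 0.72) and for IFNL3 -0.38 (standard error 0.75). For the receptor chains it ran from -0.11 (IL10RB) to 0.096 (IFNAR2). With the replicate block the standard errors of the interferon genes were 0.24, 0.19, 0.11 and 0.099 in the same order. The fit called 3 genes, 0.0204% of those tested, with 88 at an unadjusted p under 0.05 in limma, and 5 with the replicate block, and 0 of the 8 genes in either. Since it combines both contrasts known when the genes were chosen, nothing is read from this count.

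The other interferon genes were present at trace level. All 18 listed for this purpose were in the measured set, and none reached a mean of 0.5 FPKM, so that none was tested. IFNG, the type II interferon, and IFNA6 were listed at 0 in all 12 libraries, and IFNL4 reached at most 0.0138 FPKM. IFNE, an interferon of epithelia, was between 0.0493 and 0.203 FPKM, with RBMX and control libraries overlapping.

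The 13 IFNA genes, a cluster of similar type I interferons whose fragments are hard to assign to one member, had higher summed values in RBMX cultures 1 and 2. Their summed FPKM in total RNA was 0.173, 0.161 and 0.128 in control cells and 2.75, 2.96 and 0.310 in RBMX-overexpressing cells. In polysomal RNA it was 0.0594, 0.0663 and 0.0479 in control cells and 1.56, 0.946 and 0.0338 in RBMX-overexpressing cells. In total RNA all RBMX libraries were above the controls, and in polysomal RNA RBMX replicate 3 was below them. Between 1 and 3 of the 13 genes were above 0 in a control library, against 12, 12 and 7 in the RBMX total libraries and 12, 12 and 2 in the RBMX polysomal libraries.

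IFNA7 led the family in RBMX cultures 1 and 2. Its FPKM in total RNA was 0.927, 0.975 and 0.0773 in RBMX-overexpressing cells and 0.120, 0.0863 and 0 in control cells, so that replicate 3 fell among the controls. Single IFNA genes had all RBMX libraries above all controls in 4 of 13 cases in total RNA (IFNA1, IFNA2, IFNA10 and IFNA13) and in 1 of 13 in polysomal RNA (IFNA16). Of all genes tested 11.9% and 10.0% did so, but no IFNA gene was among those. The share among genes at trace level was not computed, so nothing is read from these counts. IFNW1 (interferon omega) was listed at 0 in all control libraries and had 0.0618, 0.125 and 0.0208 FPKM in RBMX total RNA. The polysomal sum of the IFNA genes was below the total sum in every culture of both vectors, with ratios of 0.344, 0.413 and 0.373 in control and of 0.569, 0.319 and 0.109 in RBMX cultures.

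**Figure D4:**
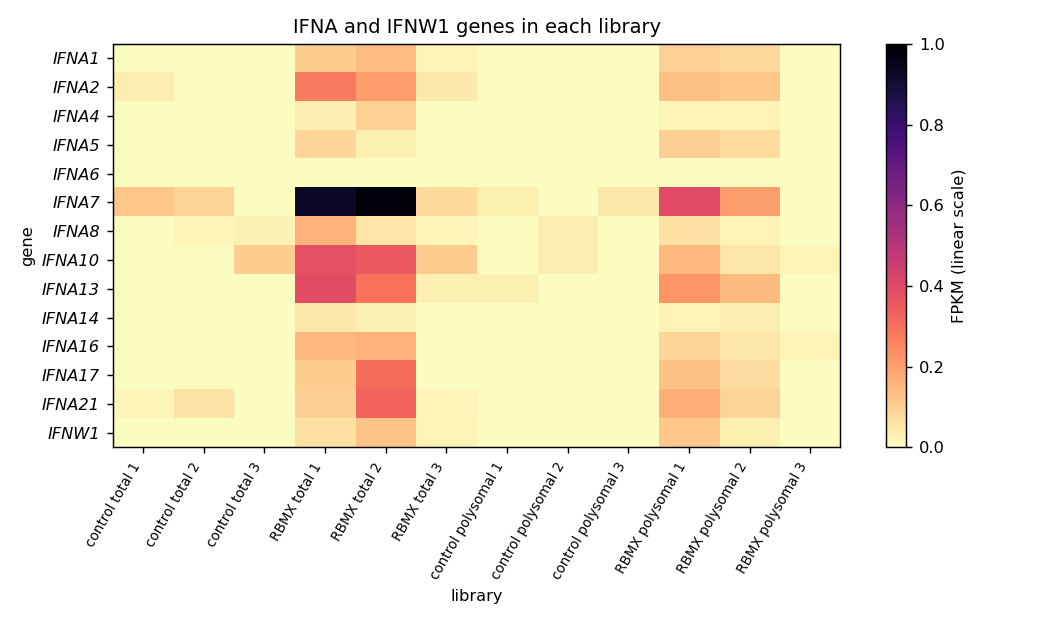
FPKM of the 13 IFNA genes and IFNW1 (rows) in the 12 libraries (columns), as color on a linear scale from 0 to 1. RBMX total replicates 1 and 2 hold the highest values, led by IFNA7 at 0.927 and 0.975, and RBMX replicate 3 is near the controls.

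The genes around the receptors were divided by role. Their lists were chosen with the contrast of the vectors known, so that their counts and values are a description and no independent evidence. At an unadjusted p under 0.05 in limma, 18.8% of all genes tested were found in total RNA and 11.7% in polysomal RNA. STAT2, a subunit of ISGF3, had 15.6, 14.2 and 19.8 FPKM in control and 65.8, 64.6 and 23.7 in RBMX total RNA, with replicate 3 close to the controls (log2 difference 1.45, standard error 0.42). The kinase JAK1 had 19.3, 20.4 and 9.46 against 17.1, 16.2 and 17.0 FPKM, a log2 difference of 0.099 with overlapping groups, and control culture 3 was the lowest library.

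Of the 8 genes that restrain the receptors, 0 passed the threshold, and at an unadjusted p under 0.05 there were 3 higher and 1 lower in total RNA and 3 higher in polysomal RNA (median log2 differences 0.24 and 0.27, where the median of all genes tested was 0). USP18, which displaces JAK1 from IFNAR2, had 22.4, 25.8 and 15.7 FPKM in control and 87.6, 88.7 and 41.3 in RBMX total RNA (log2 difference 1.67, standard error 0.35). SOCS1, an inhibitor of the kinases, had 0.698, 0.891 and 0.706 against 2.52, 2.72 and 1.59 FPKM (0.88, standard error 0.15). In both genes every RBMX library was above the controls. The phosphatase PTPN2, at a log2 difference of -0.017, had overlapping groups.

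Of the 17 sensors, adaptors and transcription factors that induce interferon genes, 16 were tested and 0 passed, with 7 higher and 1 lower in total RNA and 7 higher in polysomal RNA at an unadjusted p under 0.05. The median log2 differences were 0.26 and 0.19. The RNA sensors DDX58 (RIG-I), IFIH1 (MDA5) and DHX58 (LGP2) had log2 differences of 1.84, 1.67 and 2.36 in total RNA, and IRF7, a factor that activates interferon promoters, had 1.42. MAVS, the adaptor of these sensors, had -0.047, and TBK1, the kinase after it, 0.11. The sensors and IRF7 are themselves known to be induced by interferon.

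The 18 targets of ISGF3 had a median log2 difference of 2.63 in total RNA, ranging from 1.07 to 3.64, and of 2.57 in polysomal RNA, from 1.16 to 3.76. None passed the adjusted threshold in limma, all 18 had an unadjusted p under 0.05 in each fraction, and all 18 were higher without overlap in each fraction, where 11.9% and 10.0% of all genes tested were. OAS2, which makes the activator of RNase L, had 5.89, 7.26 and 2.39 FPKM in control and 127.9, 142.9 and 19.2 in RBMX total RNA (log2 difference 3.64, standard error 0.85). ISG15, a ubiquitin-like modifier, had 325, 353 and 218 against 1810, 1799 and 603 FPKM (2.10, standard error 0.49). As with the interferon genes, RBMX culture 3 was the lowest of its group and above the controls.

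The calls of these lists depended on RBMX culture 3. Without it 12 (total) and 10 (polysomal) of the 18 ISGF3 targets passed, as did 2 and 2 of the genes that restrain the receptors and 4 and 3 of the inducers. With the replicate block 1 ISGF3 target passed in total RNA. For this contrast the block joins control and RBMX cultures by their number alone. Whether the numbers pair them is not known, so nothing is read from this call.

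Receptors and ligands related to the type III system had small differences on the log2(FPKM + 1) scale where they were tested. Of 10 listed, 4 were tested, with median log2 differences of 0.0095 and 0.046 in the same order of fractions, and 0 passed, with 0 and 1 at an unadjusted p under 0.05. The type II receptor chains IFNGR1 and IFNGR2 had log2 differences of 0.21 and -0.14 in total RNA. IL20RB, at a mean of 0.502 FPKM, was higher without overlap in RBMX libraries in each fraction, as were 11.9% and 10.0% of all genes tested. It had 0.532, 0.389 and 0.441 FPKM in control and 0.643, 0.566 and 0.540 in RBMX total RNA. In polysomal RNA it had 0.367, 0.292 and 0.505 against 0.640, 0.573 and 0.532. IL20RB thus reached the minimum of 0.5 only through the RBMX libraries. It was also the 1 gene at an unadjusted p under 0.05 in limma, so nothing is read from either count. Its log2 differences were 0.12 and 0.19, on a scale that understates the change of low genes. IL10, IL22 and IL26, whose receptors use IL10RB, were not tested for their low level.

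**Figure D5:**
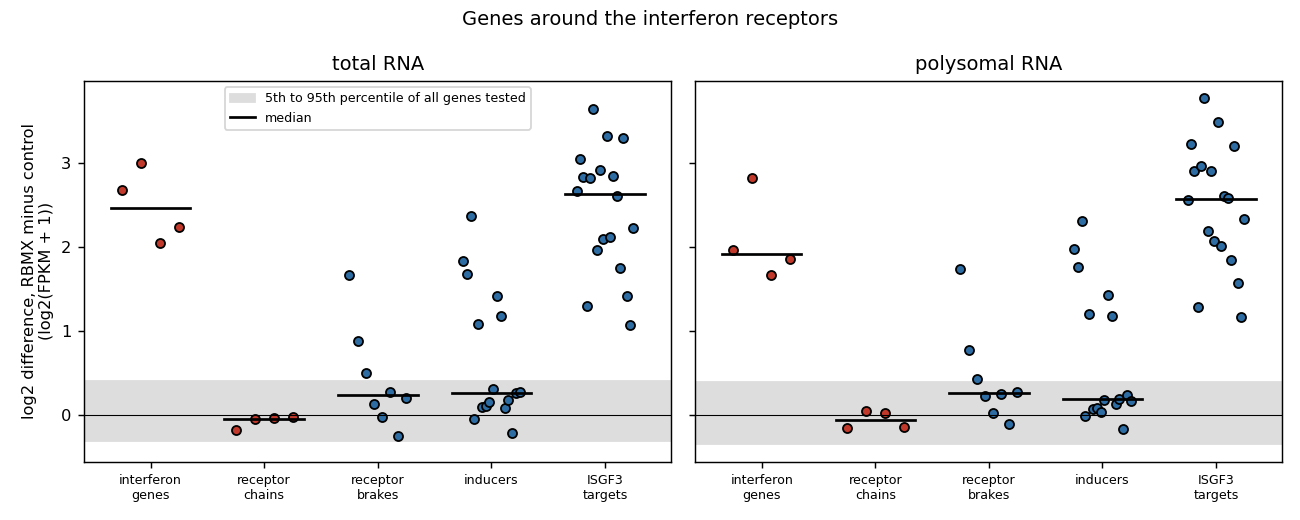
Log2 differences between RBMX-overexpressing and control cells on the log2(FPKM + 1) scale for the interferon genes, the receptor chains and 3 lists of pathway genes, in total and polysomal RNA, with 1 point per gene, a line at the median and a grey band from the 5th to the 95th percentile of all genes tested. The interferon genes and the 18 ISGF3 targets lie above the band, the receptor chains inside it.

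Genes with the most similar profile were sought by Pearson correlation of log2(FPKM + 1) over the 12 libraries, among 14668 genes. The 12 values fall into control libraries, RBMX replicate 3 and RBMX replicates 1 and 2, so that any gene with these steps scores high, and the values are a description. Closest to IFNB1 were the chemokine CXCL10 (0.991), C5orf56 (0.990), the chemokine CCL5 (0.988), TNFSF10, which encodes the death ligand TRAIL (0.987), and the collagenase MMP13 (0.986), and 217 genes scored over 0.9. Closest to IFNL1 were TRIM22 (0.997), CCL5 (0.995), DHX58 (0.995), C19orf66 (0.994) and ISG20 (0.994), with 242 genes over 0.9. For IFNLR1, which lacks these steps, VAX1 (0.941), GPR157 (0.919), GAREML (0.911), PDE4A (0.902) and RALGDS (0.883) were closest, and 4 genes scored over 0.9.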

How the data were processed

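RNA of 12 HEK293 libraries, 3 for each of 4 groups, was measured by RNA-seq with an unstranded kit. The authors deposited FPKM values, summed per gene symbol. The submitters' processing notes name CASAVA 1.8, TopHat2 2.0.13, Cuffnorm, Cufflinks 2.2.1 and hg19, whereas the study's methods describe another alignment and read counts. The annotation behind the values is not given in the sources used here. Cuffnorm may scale libraries to each other, which could move all values of a library together. One result of the pathway lists is not reported here. The knock-down and RIP libraries of the study were not analysed here, and 0 value columns were left unused.

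Groups came from the titles. The 8 genes and all gene lists were chosen with earlier results of these data known. The genes named are these 8, RBMX, the pathway and marker lists and the 5 genes most like IFNB1, IFNL1 and IFNLR1. The scale was log2(FPKM + 1), which understates the change of low genes. The 14676 genes averaging 0.5 FPKM or more were tested in limma 3.58.1 (R 4.3.3; lmFit and eBayes with trend), with Benjamini-Hochberg adjustment over all of them. Each contrast used its own 6 libraries and the interaction all 12. With 3 against 3 libraries the smallest two-sided p of an exact permutation test is 0.1. The fits were tested on simulated data with independent noise for each gene. Those data hold no shift shared by the genes of a culture, so they cannot show how the fits behave with such shifts. Sequences and figures used Python 3.11.15, Biopython 1.88 and matplotlib 3.10.9.

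Total and polysomal RNA of one culture share a gradient according to the study's methods, although the labels speak of separate dishes for the RNA extractions. They were treated as paired in the ratios within a culture and, for the fraction comparisons and the interaction, with the replicate block. The main fits of these comparisons treated the libraries as unpaired. As a check, both libraries of a culture deviated from their group means with correlations of 0.605, 0.686 and 0.835 (control) and 0.222, 0.0198 and 0.654 (RBMX) over 14168 genes, which are no independent replicates. Depth is unknown. Steps between the values of low genes were shared by only 9.41% to 20.7% of them, so that no reads were recovered and no detection limit is given. Alternatives were a pseudocount of 0.1, a minimum of 0.1 or 1 or none, median-ratio and quantile scaling, eBayes without trend, a replicate block, all 12 libraries in one fit and each library left out in turn. Leaving out both libraries of a culture was added after seeing the data.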

Additional observations from a re-analysis of the deposited data

How the results depend on the processing

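The number of genes called depended on the processing in each comparison, and the cause was not tested. For RBMX against control 24 calls in total RNA became 62 with a minimum mean FPKM of 0.1, 73 with no filter, 60 with all 12 libraries in one fit and 13 with the replicate block. The 7 calls in polysomal RNA became 14, 22 and 3 with a minimum of 0.1, all 12 libraries and the replicate block. For this contrast the block joins control and RBMX libraries by replicate number alone, and whether the numbers pair the vectors is not known. Libraries of the same number correlated in their deviations with 0.340, -0.0407 and 0.0229 in total RNA and -0.171, -0.00555 and 0.0684 in polysomal RNA. These values cannot decide it, since both fractions of RBMX cultures 1 and 2 correlated with only 0.222 and 0.0198. Of the fraction comparisons, the 12 calls in control cells became 41 with all 12 libraries and 6 with the replicate block, and the 196 in RBMX cells became 53 with no filter, 70 with quantile normalization, 21 with all 12 libraries and 4 with the replicate block. The 3 calls of the interaction became 5 with no filter and 5 with the replicate block. With one library left out, or, as added after seeing the data, both libraries of a culture, the counts ranged from 19 to 178 (total RNA), 9 to 126 (polysomal RNA), 12 to 199 (control fractions), 10 to 42 (RBMX fractions) and 3 to 7 (interaction). The extremes of 178 and 126 came without RBMX replicate 3 and 199 without control culture 3. Of the 8 interferon and receptor genes, between 0 and 4 were called in total RNA and between 0 and 4 in polysomal RNA, and 0 in the other comparisons under every alternative.

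Some fraction differences of these genes changed sign, and none of them passed the threshold in any fit. In control cells the log2 difference of IFNAR1 was 0.0027 with quantile normalization, and with libraries or cultures left out the ranges were -0.070 to 0.079 for IFNAR1, -0.18 to 0.074 for IFNB1, -0.0048 to 0.18 for IFNL2 and -0.13 to 0.0033 for IFNLR1. In RBMX cells they were -1.18 to 0.45 for IFNL1, -0.88 to 0.22 for IFNL2, -0.92 to 0.23 for IFNL3, -0.046 to 0.082 for IFNAR1 and -0.066 to 0.086 for IFNLR1. For the interaction they were -1.05 to 0.58 for IFNL1, -0.97 to 0.13 for IFNL2, -0.98 to 0.17 for IFNL3, -0.067 to 0.098 for IFNAR1, -0.019 to 0.16 for IFNAR2 and -0.022 to 0.14 for IFNLR1. The higher level of the 4 interferon genes in RBMX cells kept its sign under all 15 alternatives in each fraction. No other outcome was likely, since the genes were chosen on this contrast and their RBMX and control libraries did not overlap. Nothing is read from it. For IFNL2 and IFNL3 the log2 difference was largest with a pseudocount of 0.1, at 3.86 and 3.10 (IFNL2) and 3.53 and 2.98 (IFNL3) in total and polysomal RNA. With a library left out of a single fraction, total and polysomal RNA of different cultures are compared. Depth is unknown, so that no counting error can be given for the low values, those of IFNL2 and IFNL3 in control cells and of the IFNA genes among them.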
